A study of Mus musculus with 16 samples.

Results

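In mouse embryonic stem cells in which ERK signalling was switched on for 4 h and then blocked with a MEK inhibitor, 98 genes kept about the same level at 4h as before induction and were lower after the block. They were chosen from 12215 tested genes, out of 52636 gene identifiers counted, by their mean level in each group in CPM, read counts brought to a common library size with TMM factors. With L the log2 of the group mean CPM plus 1, each had a mean of at least 5 CPM at 4h and an L at 4h within 0.25 of that at 0h. In the group given the inhibitor L was also lower by 0.4 or more than at 4h and than at 0h. Symbols starting with Gm, Hist or Mir were dropped (4 genes of the 102 that met these limits). The values that chose the genes are those of the 0h, 4h and inhibitor groups, so their differences among these groups are a description. Counts of calls in those contrasts show how large the differences are beside the spread of the libraries and support nothing.

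The cells were the CRAFR26 line, which carries a c-RAF construct that 4-hydroxytamoxifen (4OHT) switches on. They were grown routinely on gelatine in medium with 1000 U/ml LIF, 3 µM of the GSK3 inhibitor Chir and 1 µM of the MEK inhibitor PD03. For 48 h before collection all cultures had 250 nM of the FGF receptor inhibitor PD17 in place of PD03, so every group shares that inhibitor, LIF and Chir. The 4 groups were cultures collected without 4OHT (0h), after 2 h (2h) or 4 h (4h) in 250 nM 4OHT, and after 4 h of 4OHT followed by 2 h with a MEK inhibitor (rev). Each group had 4 libraries of ribosomal RNA-depleted total RNA, 2 from clone 4 and 2 from clone 8 of the line. No culture kept in 4OHT for the same 6 h without the inhibitor, and none given the solvent of 4OHT, was analysed here, so in rev the inhibitor cannot be told apart from the later time.

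ERK is the last kinase of the RAF, MEK and ERK chain that carries FGF signals to the nucleus. In mouse embryonic stem cells it is known for driving exit from naive pluripotency, and MEK inhibitors hold the cells in the naive state. Many of the 98 genes make housekeeping products: cytosolic ribosomal proteins, which with ribosomal RNA form the ribosome, nuclear-encoded subunits of the mitochondrial respiratory chain and ATP synthase, proteasome subunits, and the RNAs of RNase P and RNase MRP. RNase P trims the 5′ ends of precursor tRNAs and RNase MRP cuts precursor ribosomal RNA.

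Total counts were 2172651 to 12680303 per library, and 3 counts corresponded to 0.213 to 1.35 CPM. The naive markers Nanog (180.3 to 514 CPM) and Esrrb (235 to 361 CPM) were present in all 16 libraries, while the endoderm factor Gata6 had at most 4 counts and the fibroblast gene Dcn had 0. Other markers of these kinds were detected: Gata4 at 1.36 to 3.23 CPM, Col1a1 at 0.298 to 2.70, Thy1 at 1.17 to 4.51 and Fn1 at 759 to 1200. Sox17 had at most 15 counts and Col1a2 at most 3. Of other lineages, Cdx2 reached 8.47 CPM and T 16.8. Dusp6, a phosphatase gene that ERK induces, averaged 1.25 CPM at 0h and 1.59 in rev, against 30.2 at 2h and 55.2 at 4h. Of 20 tested immediate-early and feedback genes that ERK is known to induce, 18 were called higher at 2h than at 0h and 18 lower in rev than at 4h, and none is among the 98. In each library 8 gene models, among them CT010467.1, Gm26917 and the 2 mitochondrial ribosomal RNAs, took a large share of the counts, 42.0 to 62.4% at 4h and 55.1 to 80.4% in rev. The rev library of clone 8 replicate 2 had the highest share and the lowest TMM factor, 0.463. As all libraries are bulk RNA, fewer cells of a type and less RNA per cell cannot be told apart.

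Values of 4 libraries are given throughout in the order clone 4 replicate 1, clone 4 replicate 2, clone 8 replicate 1 and clone 8 replicate 2. The summed CPM of the 98 genes was 3981, 4477, 5127 and 3490.4 at 0h and 3443, 4155, 3852 and 3449.5 at 2h. It was 4905, 4016, 4412 and 4015 at 4h and 2885, 2863, 2968 and 2866 in rev. The 4 rev libraries lay close together and below every other library, while the 0h libraries were the most spread. L was lower in rev than at 4h by 0.40 to 0.98 across the 98. The fitted log2 fold change of rev against 4h had a median of -0.54 over the 98 genes and 0.01 over all tested genes, and that of rev against 0h had a median of -0.51 beside -0.01; both comparisons share the rev libraries. In the model of all genes (edgeR quasi-likelihood, Benjamini-Hochberg adjusted p under 0.05) 80 of the 98 were called lower in rev than at 4h, where 8.43% of all tested genes were called lower and 7.93% higher, and 85 lower than at 0h, where 9.86% were lower and 12.4% higher. No member was called higher in either contrast, and at an unadjusted p under 0.05 the count was also 0. For 59 members every rev library was below every 4h library (6.79% of tested genes), for 51 every rev library was below every 0h library (7.19%), and for 23 rev lay below all 12 other libraries (0.524%). The contrasts of rev with 4h and 0h chose the genes, so nothing is read from these counts of calls or of groups that do not overlap.

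**Figure D1:**
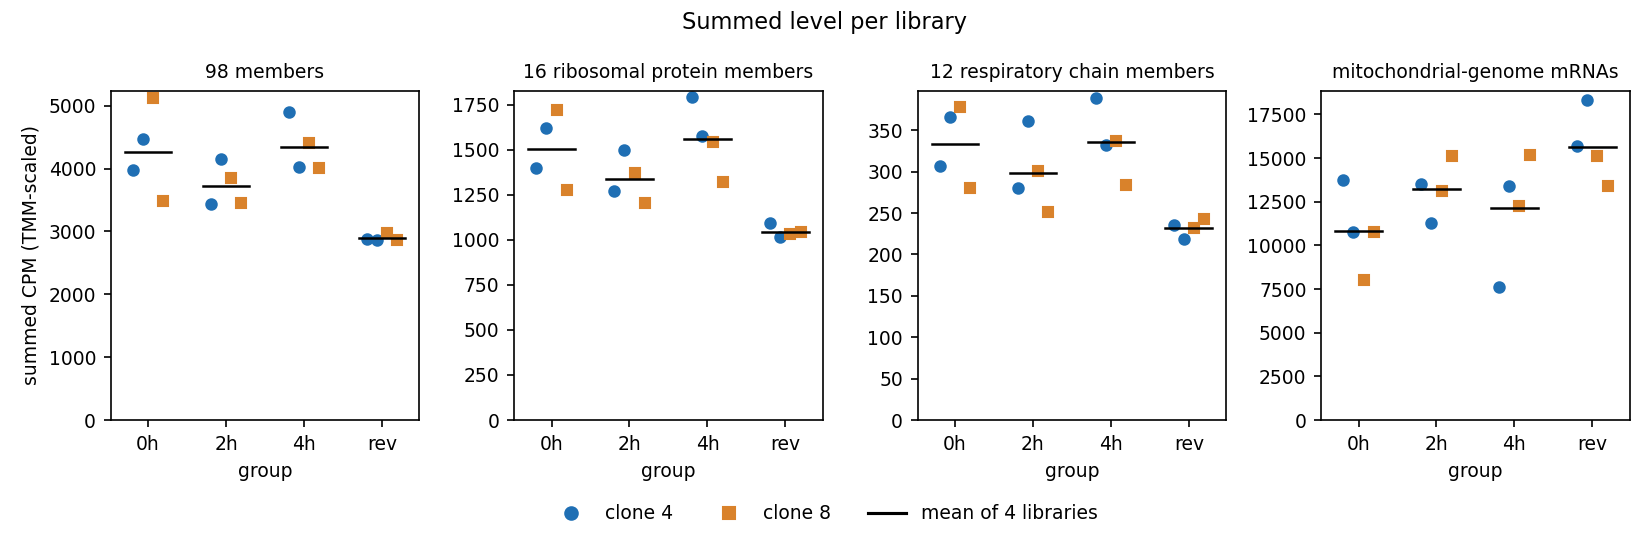
Summed CPM per library (points, clone 4 circles, clone 8 squares; lines, mean of 4 libraries) in the 4 groups for the 98 genes, the 16 ribosomal protein genes and 12 respiratory chain genes among them, and the mRNAs of the mitochondrial genome. The 98 genes sum to 2863 to 2968 CPM in rev and to at least 3443 CPM in the other groups, while the mitochondrial mRNAs are highest on average in rev.

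Other values of the libraries moved with rev. The summed CPM of the mitochondrial-genome mRNAs was 8011 to 13731 at 0h, 7623 to 15173 at 4h and 13394 to 18332 in rev, and that of the 2 mitochondrial ribosomal RNAs 61338 to 93183, 52701 to 87208 and 110711 to 141177. With the share of the 8 abundant models added to the fit, 53 members in place of 80 were called lower in rev than at 4h and 80 in place of 85 lower than at 0h. The members' median log2 fold change against 4h was -0.49 in that fit and -0.54 without the term, all 98 stayed negative, and calls of lower genes over all tested genes went from 1030 to 652. With those 8 models removed from the counts, 80 and 85 members were called lower. Leaving out the rev library with the highest share or any other library gave 59 to 83 members lower than at 4h, the fewest without 4h clone 4 replicate 1. The part of the mitochondrial and abundant RNAs in the result was not tested further. The limits themselves gave 74 genes without 4h clone 4 replicate 1 and 142 without rev clone 4 replicate 1.

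**Figure D2:**
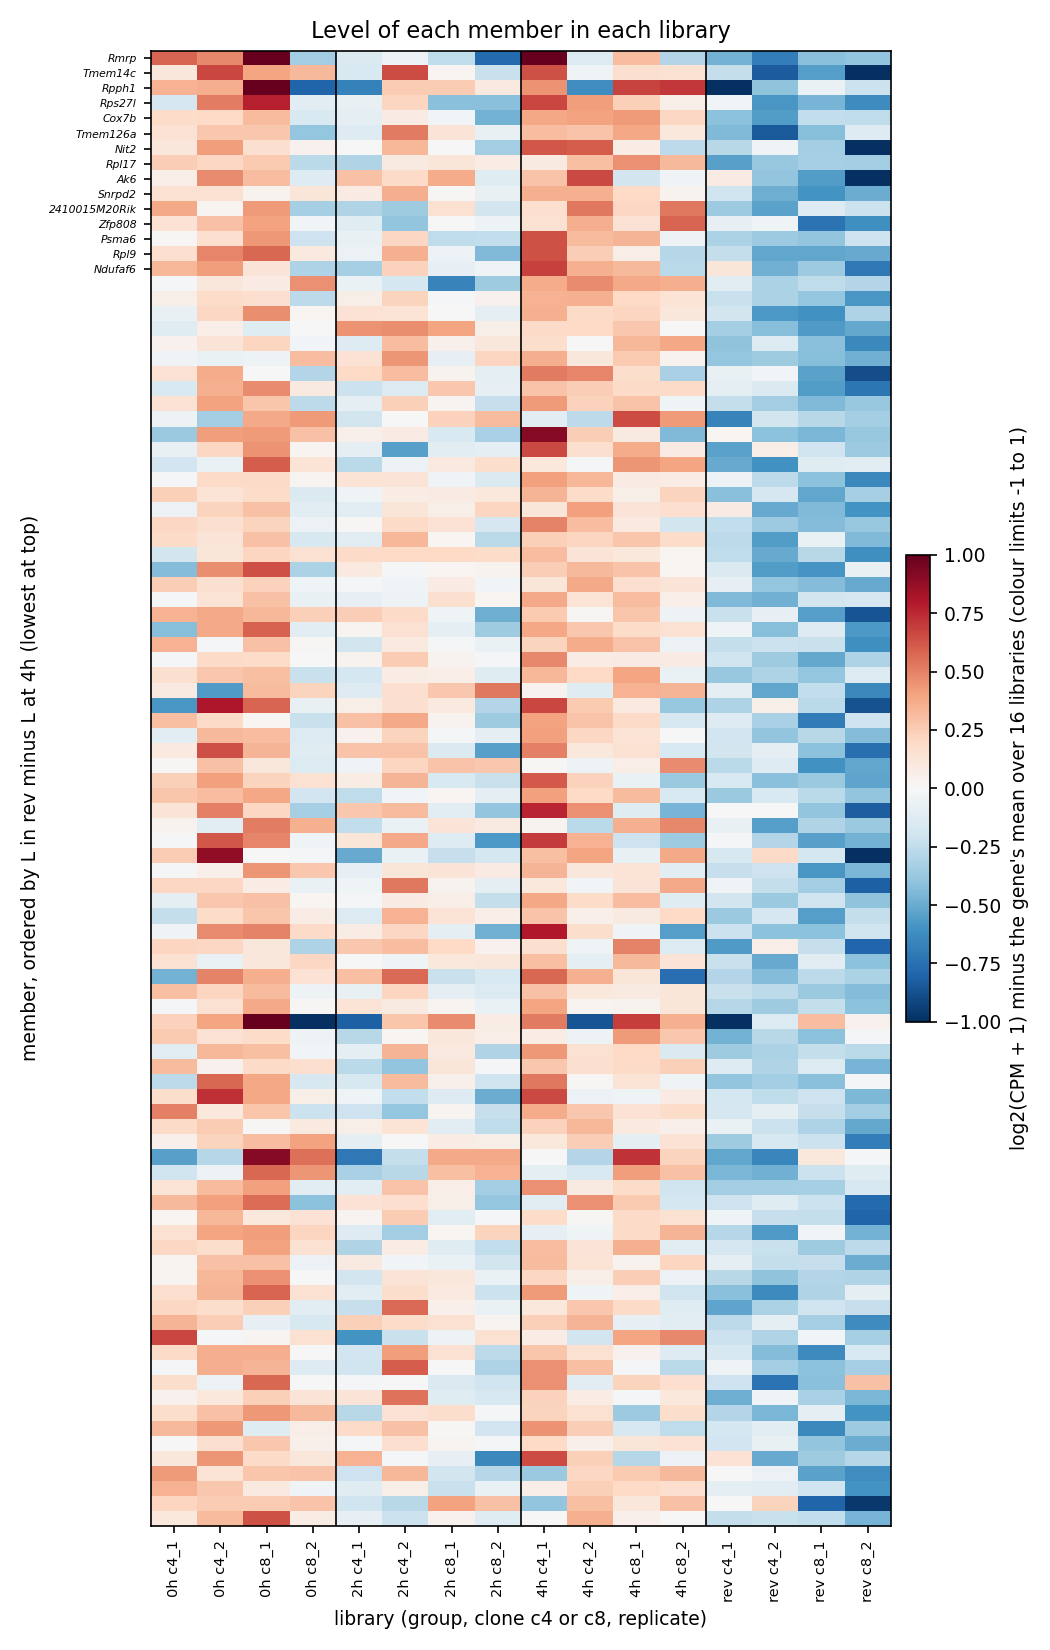
Level of each of the 98 genes (rows, largest difference between rev and 4h at the top) in each of the 16 libraries (columns), as log2(CPM + 1) minus the gene's mean over the 16 libraries, with colours limited to -1 and 1. The 15 genes at the top are labelled. The rev columns are blue for most rows, and red is strongest in 0h clone 8 replicate 1 and 4h clone 4 replicate 1.

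By annotation 94 of the 98 genes are protein coding, 3 are ribozyme RNA genes and 1, BC002059, is a long noncoding RNA gene. The 15 with the largest differences between rev and 4h, from -0.98 to -0.64 in L, were Rmrp, Tmem14c, Rpph1, Rps27l, Cox7b, Tmem126a, Nit2, Rpl17, Ak6, Snrpd2, 2410015M20Rik, Zfp808, Psma6, Rpl9 and Ndufaf6. The 18 members not called lower in rev than at 4h were Cbwd1, Emb, Fundc2, Ick, Idi1, Lsm5, Manea, Mitd1, Mrps16, Ndufb6, Ocln, Parp9, Ppm1k, Rpl22l1, Rprl3, Smtnl1, Zfp184 and Zfp760. Over all 98 the mean at 4h ran from 5.08 to 498 CPM, or 0.670 (Ick) to 1559.6 (Rpph1) CPM per kb of exon.

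Rmrp (ENSMUSG00000088088, chr4:43492788-43493058 of GRCm38, minus strand), the RNA of RNase MRP, had the largest difference over the 4 libraries per group. The CPM values of Rmrp were 94.0, 87.9, 148 and 48.9 at 0h and 56.4, 60.0, 52.3 and 36.1 at 2h. At 4h its values were 167, 56.8, 77.7 and 51.0, and in rev 44.8, 38.4, 46.7 and 47.3. The rev values were below all 0h and 4h values and overlapped those of 2h. The mean was 88.1 ± 53.9 CPM (SD, n = 4) at 4h and 44.3 ± 4.07 in rev, with an L difference of -0.98. Its fitted log2 fold change of rev against 4h was -1.02 ± 0.26 (edgeR adjusted p = 0.00500). Without the 4h library of clone 4 replicate 1 it was -0.50 and did not pass (edgeR adjusted p = 0.132), so its place at the head of the list rests on that library. Every run of 31 bases of this gene model also occurs in another, overlapping model, so counts of Rmrp are uncertain.

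Rpph1 (ENSMUSG00000092837, chr14:50807449-50807767, minus strand), the RNA of RNase P, had the highest level among the members. Per library, Rpph1 stood at 482, 488, 813 and 217 CPM at 0h and 237, 452, 453 and 405 at 2h. Values were 518, 246, 606 and 619 at 4h and 137, 287, 362 and 326 in rev. The rev and 4h values overlapped, and so did the values of all groups. Rprl3 (ENSMUSG00000088025, chr8:3803069-3803358, minus strand) is a shorter RNase P-like RNA gene. CPM of Rprl3 came to 36.1, 40.6, 70.8 and 13.6 at 0h and 17.0, 37.2, 42.9 and 32.4 at 2h. The 4h libraries had 44.2, 16.4, 49.9 and 39.5, the rev libraries 9.38, 27.8, 38.1 and 31.6. Both RNAs were lowest in the same library of every group: 0h clone 8 replicate 2, 2h clone 4 replicate 1, 4h clone 4 replicate 2 and rev clone 4 replicate 1. Their first 160 bases differ at 10 positions, and over their whole lengths 74.5% of aligned columns are the same, so reads could be split between them.

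The RNA sequences are shown because 3 of the 98 members are such RNAs and 2 of them are close copies. Bases are from the GENCODE M21 transcripts, 5′ to 3′, and capitals mark the positions at which the first 160 bases of Rpph1 and Rprl3 differ; Rmrp is shown whole, all in lower case.
Rpph1: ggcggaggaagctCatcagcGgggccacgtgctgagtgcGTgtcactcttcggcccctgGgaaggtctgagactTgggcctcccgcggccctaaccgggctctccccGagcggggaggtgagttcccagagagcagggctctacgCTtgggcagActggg
Rprl3: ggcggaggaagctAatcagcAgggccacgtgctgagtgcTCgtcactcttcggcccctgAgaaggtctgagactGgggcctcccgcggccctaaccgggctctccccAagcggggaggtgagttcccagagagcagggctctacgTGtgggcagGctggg
Rmrp: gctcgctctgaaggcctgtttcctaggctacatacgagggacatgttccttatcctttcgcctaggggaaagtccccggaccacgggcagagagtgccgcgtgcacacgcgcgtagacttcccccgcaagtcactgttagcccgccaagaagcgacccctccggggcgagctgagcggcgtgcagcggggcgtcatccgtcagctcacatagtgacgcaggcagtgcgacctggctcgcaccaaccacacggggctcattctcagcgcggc

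Cytosolic ribosomal protein genes were the largest group, with 16 of the 98 members, among them Rpl5, Rpl9, Rpl17, Rpl22l1, Rpl26, Rpl31, Rpl32, Rpl34, Rpl36 and Rpl39 of the large subunit, and Rps21, Rps25, Rps27a and Rps27l of the small subunit. Rps27l and Rpl22l1 are paralogs of Rps27 and Rpl22, and Rps27a makes a ribosomal protein fused to ubiquitin. The summed CPM of the 16 was 1400.2, 1617, 1717 and 1275 at 0h and 1269, 1496, 1369 and 1204 at 2h. It was 1789, 1576, 1544 and 1322 at 4h and 1092, 1014, 1034 and 1042 in rev, with all rev libraries below all others. Of the 82 coding ribosomal protein genes tested, 42 were called lower in rev than at 4h and 0 higher, beside 8.43% and 7.93% of all tested genes; the 42 include members, which were chosen for being lower, and none of the 16 was higher at an unadjusted p under 0.05. The 66 that are not members had 27 called lower and 0 higher against 4h, with a median log2 fold change of -0.26, and, against 0h (9.86% of tested genes lower, 12.4% higher), 26 lower and 0 higher, with -0.23. Those 66 summed to 10354 to 11449 CPM at 4h and 8625 to 10284 in rev. This list was written after the members were seen.

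Rpl32 (ENSMUSG00000057841, chr6:115805505-115808747, minus strand) had the highest level per kb of exon among them. Rpl32 was measured at 140.1, 153, 244 and 176 CPM at 0h and 133, 153, 171 and 181 at 2h. At 4h its values were 172, 158, 217 and 211, and in rev 113, 105, 147 and 148. Within each clone every rev value was below every other value, while across clones clone 8 was the higher one. Rps27l (chr9:66946086-66949516) had the largest difference of the ribosomal protein genes, with an L difference of -0.77 from 4h. In CPM, Rps27l had 16.6, 27.0, 32.6 and 17.2 at 0h and 17.7, 21.9, 13.8 and 13.7 at 2h. Values were 30.2, 25.3, 22.2 and 19.5 at 4h and 18.3, 12.2, 13.3 and 11.7 in rev. The rev values were below all 4h values and overlapped those of 0h and 2h. Rpl17 averaged 171 ± 18 CPM at 4h and 105 ± 6.90 in rev (SD, n = 4), and rev lay below all 12 other libraries. In 4h against 0h edgeR called 1 member higher and 0 lower, with 3 higher and 1 lower at an unadjusted p under 0.05; over all tested genes 16.8% were called lower there and 17.2% higher, and the rule had required small differences.

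Per kb of exon, the ribosomal protein members averaged 3.46 (Rpl22l1) to 197 (Rpl32) CPM at 4h. Ribosomal protein genes have many processed copies, and the share of runs of 31 bases that also occur in another gene model was 94.1% for Rpl36, 94.8% for Rpl5, 76.2% for Rps25 and 11.6% for Rpl34. The counting rule for such reads is not given in the sources used here, so the levels of these genes are uncertain, and their L differences in rev from 4h ran from -0.46 (Rpl22l1) to -0.77 (Rps27l).

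Other members serve translation. Tpt1, the abundant translationally controlled tumour protein, averaged 168 ± 20.5 CPM at 4h and 114 ± 19.3 in rev. Eif2s3x, the gamma subunit of the initiation factor that brings the initiator tRNA to the ribosome, was 21.5 ± 2.91 and 15.1 ± 1.99, with rev below all other libraries. Dars, the aspartyl-tRNA synthetase, was 82.5 ± 3.42 and 61.9 ± 8.31, and it was the only one of 34 tested aminoacyl-tRNA synthetase genes among the members. Polr1c, a subunit shared by RNA polymerases I and III, was 33.5 ± 3.07 and 24.2 ± 3.20. The other 29 genes of a ribosome biogenesis list were not members. Of the 30 genes on that list 25 were called higher at 4h than at 0h (17.2% of all tested genes) and 4 lower in rev than at 4h (8.43%).

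Respiratory chain and ATP synthase genes of the nucleus gave 12 members: Ndufa7, Ndufb6, Ndufb8 and Ndufb9 of complex I, Uqcrc2 and Uqcrh of complex III, Cox4i1, Cox7a2 and Cox7b of complex IV, and Atp5j2, Atp5k and Atp5mpl of the ATP synthase. Cox7b (chrX:106015700-106022450) had the largest difference of the 12, with an L difference of -0.72 from 4h. The CPM values of Cox7b were 31.5, 31.9, 34.6 and 24.8 at 0h and 25.9, 29.3, 27.0 and 19.6 at 2h. The 4h libraries had 36.5, 36.8, 37.4 and 32.1, the rev libraries 20.6, 18.5, 23.2 and 23.0. The rev values were below all 0h and 4h values, and 1 of the 2h libraries, clone 8 replicate 2, lay among them. Per library, Cox7a2 stood at 17.7, 21.6, 26.1 and 18.9 CPM at 0h and 20.7, 20.6, 18.7 and 17.3 at 2h. At 4h its values were 24.2, 21.4, 21.8 and 20.3, and in rev 16.3, 12.2, 11.9 and 14.9. The rev values of Cox7a2 were below those of all other libraries. The 12 genes summed to 284 to 389 CPM at 4h and 219 to 243 in rev.

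Among the 67 tested genes of this kind that are not members, 15 were called lower and 0 higher against 4h (8.43% and 7.93% of all tested genes), with a median log2 fold change of -0.17. Of 11 tested transcripts of the mitochondrial genome itself, 3 were called higher in rev than at 4h and 0 lower, 7 higher than at 0h (12.4% of all tested genes), and none is a member. Further members act in mitochondria. Tmem14c (chr13:41016292-41022586), an inner membrane protein needed for heme synthesis, had the second largest difference, -0.89. CPM of Tmem14c came to 8.42, 12.8, 10.5 and 9.94 at 0h and 6.86, 12.7, 7.86 and 6.46 at 2h. Values were 12.5, 7.48, 8.73 and 8.68 at 4h and 6.40, 3.91, 4.97 and 3.16 in rev. Every rev value of Tmem14c was below every other value. The complex I assembly genes Tmem126a and Ndufaf6 averaged 8.70 ± 0.779 and 5.64 ± 1.71 CPM at 4h and 4.92 ± 1.16 and 3.26 ± 1.09 in rev. Hspe1, the co-chaperonin of the mitochondrial matrix, was 43.0 ± 7.11 and 30.0 ± 2.40, and Fh1, fumarase of the citric acid cycle, 38.4 ± 4.94 and 27.4 ± 1.45. Mrpl13 and Mrps16 were the 2 members among 77 tested mitochondrial ribosomal protein genes.

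**Figure D3:**
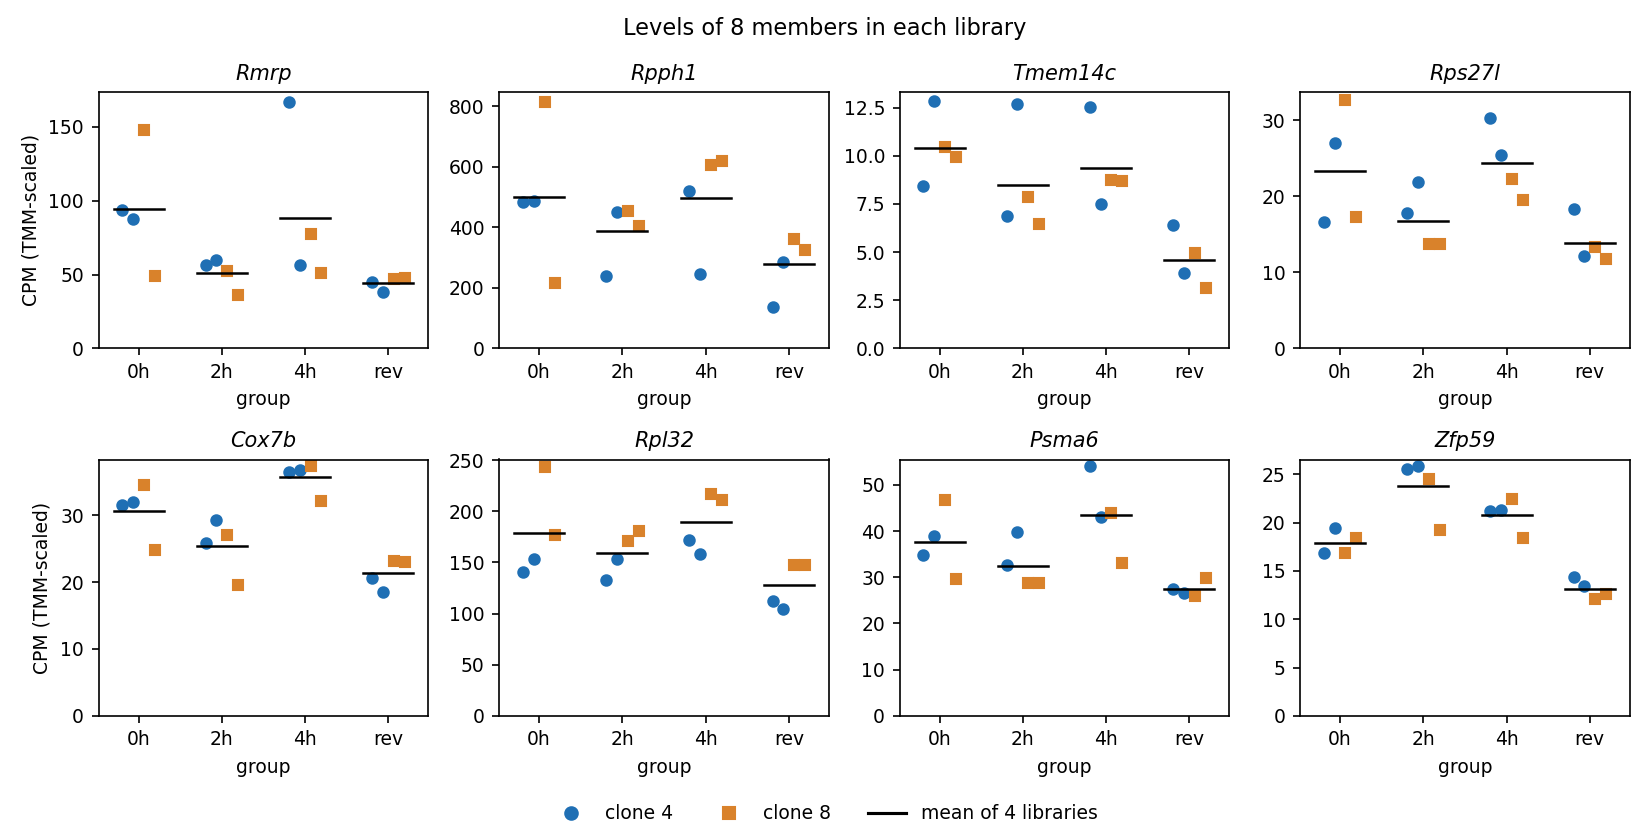
CPM of 8 members in each library (clone 4 circles, clone 8 squares; lines, mean of 4 libraries) in the 4 groups. Tmem14c and Zfp59 have all rev values below all other values, Rmrp and Rpph1 vary several-fold within 0h and 4h, and Zfp59 is the one member called higher at 2h.

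Proteasome genes gave 3 members of 37 tested: Psma6 of the core's outer ring, Psmb5, a catalytic subunit, and Psmd13 of the regulatory lid. Psma6 was measured at 34.8, 38.9, 46.8 and 29.7 CPM at 0h and 32.8, 39.9, 28.8 and 28.8 at 2h. The 4h libraries had 54.1, 43.1, 43.9 and 33.2, the rev libraries 27.5, 26.5, 26.0 and 29.7. The rev values of Psma6 were below all 4h values, and the lowest of the 0h and 2h values reached them. The 34 proteasome genes that are not members had, in rev against 4h, 16 called lower and 0 higher (8.43% and 7.93% of all tested genes), and 4 lower and 1 higher than at 0h (9.86% and 12.4%). Prefoldin and tubulin folding genes gave Pfdn1, Vbp1 and Tbca, 3 of 17 tested. In splicing, Snrpd2, an Sm core protein of the spliceosome, averaged 27.0 ± 2.91 CPM at 4h and 16.5 ± 2.18 in rev, with rev below all 12 other libraries.

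Genes of the zinc finger and related symbols gave 7 members of 406 tested: Zfp59, Zfp184, Zfp277, Zfp760, Zfp808, Zfp975 and Zbtb24. Zfp59 (chr7:27838607-27856438) was the member called higher at 2h. In CPM, Zfp59 had 16.8, 19.4, 16.9 and 18.4 at 0h and 25.5, 25.8, 24.5 and 19.2 at 2h. At 4h its values were 21.2, 21.3, 22.4 and 18.4, and in rev 14.4, 13.5, 12.1 and 12.6. Its mean was highest at 2h, and its rev values were below all others. Zfp808 was 20.7 ± 3.19 at 4h and 12.8 ± 3.34 in rev. Of the 406 genes on that list 39 were called lower in rev than at 4h and 31 higher, beside 8.43% and 7.93% of all tested genes.

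Single members came from other pathways. Psat1, an enzyme of serine synthesis, was the only member on a list of 13 tested ATF4 and stress response genes, at 122 ± 23.9 CPM at 4h and 89.6 ± 11.2 in rev. Dppa5a, a pluripotency-associated RNA-binding protein and the only member among 19 naive pluripotency genes, was 160.1 ± 23.1 at 0h, 135 ± 26.2 at 4h and 100.1 ± 15.7 in rev. Of those 19 genes 8 were called higher and 7 lower in rev than at 4h, beside 7.93% and 8.43% of all tested genes. Idi1, an isomerase of isoprenoid synthesis, was 6.91 ± 1.60 and 4.66 ± 1.48. Prdx1, a peroxiredoxin, was 188 ± 23.2 and 131 ± 10.4, Ppia, cyclophilin A, 158 ± 13.2 and 117 ± 13.2, and Nit2, an omega-amidase, 13.8 ± 4.19 and 8.11 ± 2.59. Pebp1, which is known to bind RAF and limit its action on MEK, is named after its values were seen: its 4 libraries spanned 7.79 to 10.2 CPM in rev, against 10.4 to 13.9 at 0h, 11.3 to 12.6 at 2h and 12.2 to 15 at 4h, and no rev value reached any other. In all, 52 of the 98 genes were on a list, 32 of them on a list that was not written after the members were seen.

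The 2h libraries did not enter the rule. Of the 98 members, 87 had a negative fitted log2 fold change from 0h to 2h (52.2% of tested genes did), with a median of -0.20 beside -0.02 over all tested genes. Without 0h clone 8 replicate 1 that median was -0.11, with 77 negative, and without 0h clone 8 replicate 2 it was -0.28, with 91 negative. Leaving out any other library gave a median between these. From 2h to 4h 90 had a positive one (49.6%), with a median of 0.21 beside -0.00 over all tested genes. The call was passed by 14 members that were lower at 2h than at 0h (9.68% of tested genes) and by 1 that was higher (11.4%). For 4h against 2h it was passed by 8 that were higher (3.8%) and by 0 that were lower (3.52%); none was lower at an unadjusted p under 0.05, and DESeq2 also gave 0. The rule required a level at 0h and at 4h above that in rev, so the 0h and 4h sides of these contrasts are not independent of it. DESeq2 called 5 members lower at 2h, and 855 of all tested genes in place of 1182 in edgeR. Leaving out 1 library gave 4 members (without 0h clone 8 replicate 1, with 1052 of all tested genes) to 22 (without 0h clone 8 replicate 2, with 743). The 8 higher at 4h than at 2h became 4 without 2h clone 4 replicate 1 and 14 without 0h clone 8 replicate 2. Over all tested genes 464 higher calls became 303 and 498. The 14 lower at 2h were S1pr2, Mrpl13, Rmrp, Rps27l, Rpl22l1, Rpl9, Dppa5a, Smtnl1, Iqcb1, Zfp760, Nampt, Rps21, Rps27a and Cox7b, and the 8 higher at 4h than at 2h were S1pr2, Cox7b, Psma6, Rps27l, Mrpl13, Rmrp, Rpl32 and C1d.

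S1pr2, a receptor for sphingosine 1-phosphate, had the smallest adjusted p at 2h. The CPM values of S1pr2 were 13.3, 14.6, 14.3 and 18.8 at 0h and 12.8, 11.8, 8.11 and 10.3 at 2h. Values were 17.7, 19.0, 17.8 and 17.6 at 4h and 12.5, 10.6, 11.1 and 10.8 in rev. Every 2h value was below every 0h and 4h value, and the rev values lay within the range of those at 2h. Its log2 fold change was -0.59 ± 0.13 (SE) for 2h against 0h (edgeR adjusted p = 0.00126) and 0.79 ± 0.13 for 4h against 2h (adjusted p = 9.37e-05).

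In the edgeR fit, Mrpl13, a protein of the mitochondrial ribosome, differed by -0.44 ± 0.11 (log2 ± SE) at 2h from 0h (adjusted p = 0.00473), Rmrp by -0.91 ± 0.24 (adjusted p = 0.00638), Rps27l by -0.58 ± 0.16 (adjusted p = 0.00712) and Rpl22l1 by -0.66 ± 0.18 (adjusted p = 0.00885). Without 0h clone 8 replicate 1, Rmrp stood at -0.46 (edgeR adjusted p = 0.129) and Rps27l at -0.30 (edgeR adjusted p = 0.121). Rpl22l1 was at -0.54 (edgeR adjusted p = 0.0624) without 0h clone 4 replicate 2 and at -0.56 (edgeR adjusted p = 0.0532) without 2h clone 8 replicate 2. In each of these cases the call was lost. Among the 4 genes, Mrpl13 and Rpl22l1 had every 2h library below every 0h library. Zfp59 was the member higher at 2h, by 0.37 ± 0.10 (edgeR adjusted p = 0.00737), and without 2h clone 8 replicate 1 it was at 0.31 (edgeR adjusted p = 0.0539), a call lost. Cox7b had a log2 fold change of -0.30 ± 0.11 at 2h (edgeR adjusted p = 0.0463) and 0.54 ± 0.11 for 4h against 2h (adjusted p = 0.00108). Rpl32 and Tmem14c did not pass at 2h, at -0.16 ± 0.08 (edgeR adjusted p = 0.160) and -0.46 ± 0.17 (adjusted p = 0.0553).

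Over the 4 groups, 22 members (22.4%) were called lower in clone 8 than in clone 4, beside 14% of tested genes, and 8 (8.16%) were called higher, beside 16.1%. The fitted difference was below 0 for 74 of the 98, with a median of -0.10 beside -0.01 over all tested genes. DESeq2 called 13 lower and 4 higher. Psat1 was higher in clone 8 by 0.51 ± 0.05 on the log2 scale (edgeR adjusted p = 1.57e-10), at 97.0, 107, 166 and 151 CPM at 0h and 80.8, 79.7, 95.6 and 102 in rev. Rpl34 was lower in clone 8, with a log2 difference of -0.60 ± 0.08 (adjusted p = 1.42e-07), and Ocln, a tight junction protein, was higher by 0.97 ± 0.13 (adjusted p = 2.78e-07). Rpl32 was higher in clone 8 while 8 of the other 15 ribosomal protein members were called lower there.

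The differences between rev and the other groups were compared between the clones. The rule used means over the same libraries of both clones, so these are not tests in libraries outside the choice. No member passed the test of a clone difference in rev against 4h or in rev against 0h (edgeR, adjusted p under 0.05), and DESeq2 also gave 0 for both. Among all tested genes 0.00819% had a log2 fold change of rev against 4h called higher in clone 8 than in clone 4 and 0% called lower, and for rev against 0h 0.0409% and 0.0164%. At an unadjusted p under 0.05 there were 8 members for rev against 4h, 4 in each direction, and 7 for rev against 0h, all with a more negative log2 fold change in clone 8. The share of all tested genes at that unadjusted cut is not given here, so nothing is read from the 8 and the 7. Leaving out 0h clone 8 replicate 1 gave 2 members with a called difference against 0h. Ick, a kinase of the MAP kinase-related family, had the smallest p. Per library, Ick stood at 8.42, 8.65, 8.68 and 8.87 CPM at 0h and 6.08, 5.69, 9.71 and 8.95 at 2h. The 4h libraries had 5.17, 9.0, 7.79 and 8.95, the rev libraries 7.14, 8.47, 3.65 and 3.16. The low rev values were those of clone 8, and the difference between clones was -1.35 ± 0.39 against 4h (adjusted p = 0.587) and -1.16 ± 0.38 against 0h (adjusted p = 0.308). Tpt1 differed by -0.36 ± 0.15 against 0h (adjusted p = 0.448), a difference that did not pass. With 2 libraries per clone and group, these tests have little precision. In single clones, 58 members were called lower in rev than at 4h in clone 4 (5.46% of tested genes) and 28 in clone 8 (2.8%). Against 0h the counts were 35 in clone 4 (3.83%) and 50 in clone 8 (4.9%). The libraries of both clones chose the members, so nothing is read from these 4 counts.

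To measure the same differences in libraries that had no part in the choice, the limits were applied to 1 clone and the values read in the other. In clone 4 they chose 112 genes, 44 of them among the 98. In clone 8 these 112 had a median log2 fold change of -0.25 for rev against 4h, beside 0.00 over all tested genes, and -0.38 for rev against 0h. The call in clone 8 was passed by 11 of them against 4h (9.82%, beside 2.8% of tested genes) and by 20 against 0h (17.9%, beside 4.9%), all lower. In clone 8 the limits chose 160 genes, 50 of them among the 98. In clone 4 these had medians of -0.25 and -0.26, with 42 (26.2%, beside 5.46%) and 20 (12.5%, beside 3.83%) called lower and none higher at the adjusted p. The fold changes were negative for 100 of 112 and 125 of 160 against 4h. The medians outside the choosing clone were smaller than those of the 98, whose own libraries chose them. Both comparisons within a clone share its rev libraries. These counts depended on single libraries: 11 became 2 without rev clone 8 replicate 1 and 18 without 0h clone 4 replicate 1, and 20 against 0h in clone 8 became 6 without 0h clone 8 replicate 1 and 38 without 0h clone 8 replicate 2. In clone 4, 42 became 20 without 4h clone 4 replicate 1 and 60 without rev clone 8 replicate 1, and 20 against 0h became 1 without 0h clone 4 replicate 2 and 30 without rev clone 8 replicate 1. With a library left out the limits were applied again, so the genes chosen could change and these counts are not out of 112 or 160. DESeq2, on the same 112 and 160 genes, gave 5, 12, 27 and 8 in the same order.

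**Figure D4:**
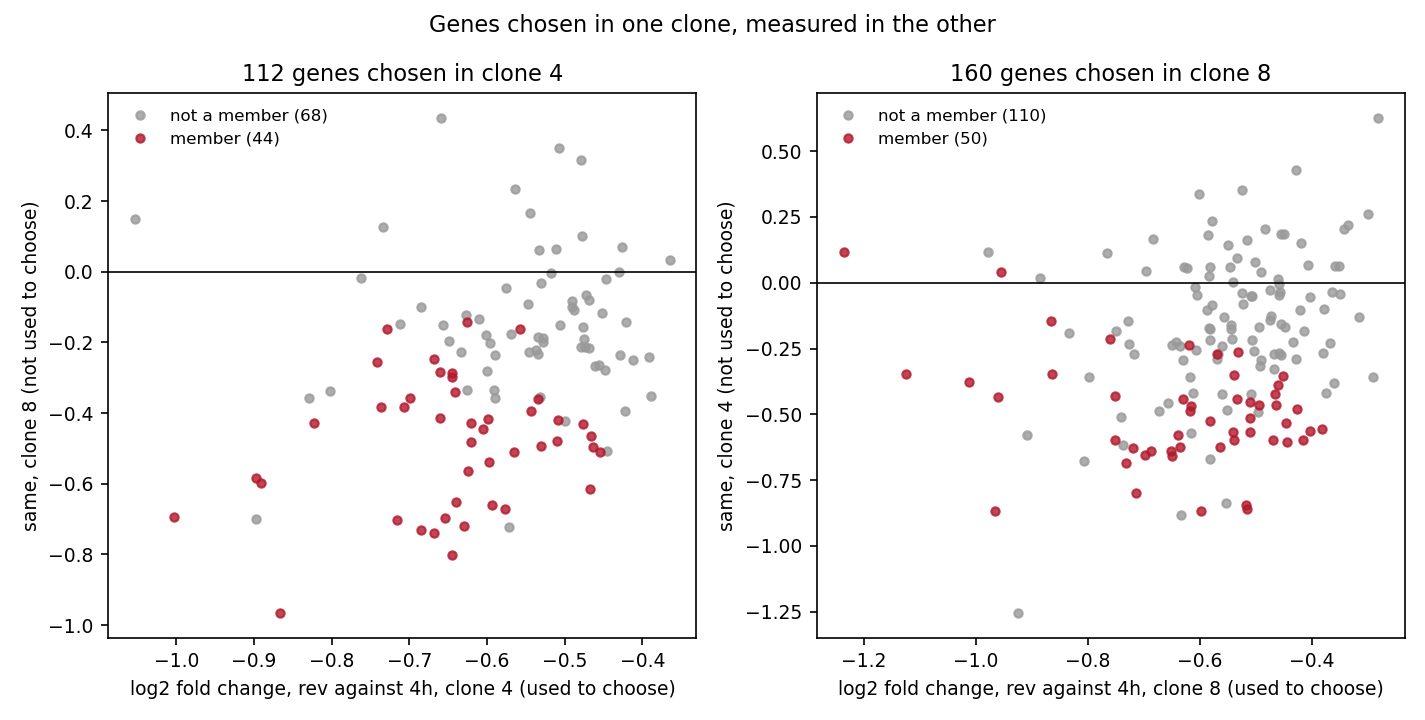
Log2 fold change of rev against 4h in the clone used to choose the genes (horizontal axis) and in the clone not used (vertical axis), for 112 genes chosen in clone 4 (left) and 160 chosen in clone 8 (right); each point is a gene, red if among the 98, and the line marks 0. Most points are below the line in the clone not used, 100 of 112 and 125 of 160.

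At 2h, the genes chosen in clone 4 had 8 called lower in clone 8 than at 0h (7.14%, beside 7.83% of tested genes) and 0 higher (beside 9.79%). Those chosen in clone 8 had 2 called lower in clone 4 (1.25%, beside 2.34%) and 2 higher (1.25%, beside 4.95%). Calls at 2h in the clone not used to choose were thus no more frequent than among all tested genes. The log2 fold changes were below 0 for 91 of 112 in clone 8, with a median of -0.17 beside -0.02 over all tested genes, and for 99 of 160 in clone 4, with -0.07 beside -0.00. The limits were met in both clones by 14 genes, 12.5% of the 112 and 8.75% of the 160, and all 14 are members: Tmem14c, Snrpd2, Cox7a2, Rps25, Rpl32, Pebp1, Timm8b, Rpl31, Tspan31, Prdx1, Hspe1, Eif2s3x, Nampt and Tmem147. Tmem14c had a log2 fold change in rev against 4h of -0.87 in clone 4 and -0.97 in clone 8. Timm8b, a chaperone of mitochondrial import, had -0.65 and -0.70, and Nampt, an enzyme of NAD synthesis from nicotinamide, had -0.45 and -0.51. These values chose the genes and are given as a description.

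In features the rule had not used, the members differed from tested genes in their medians. Their exons covered a median of 2329 bp (GENCODE M21) against 4419 bp over tested genes with a position, in 5.5 against 9 exon blocks, and the transcripts were 47.5% GC against 49.6%. Of the 94 coding members, 58 fell in the shortest of 4 equal classes of tested coding genes by exon length, 20 and 11 in the next and 5 in the longest, which is 2.04%, 0.704%, 0.387% and 0.176% of the genes of each class. The median log2 fold change of rev against 4h over all genes of these classes, from short to long, was -0.07, -0.01, 0.03 and 0.05. No test was made of these features.

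**Figure D5:**
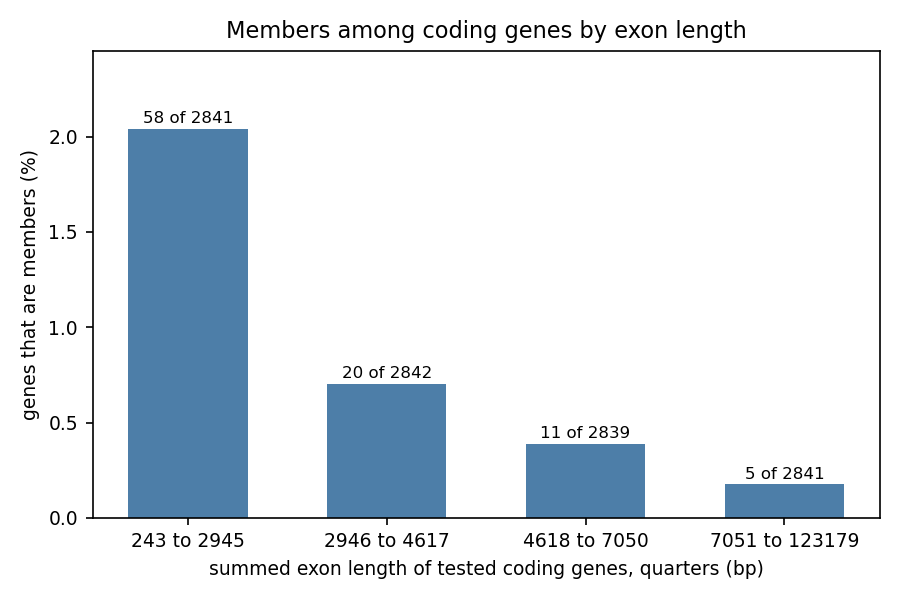
Percent of tested coding genes that are members (bars, from 0) in 4 equal classes of summed exon length in bp, with the number of members and of genes above each bar. The share is 2.04% in the shortest class and 0.176% in the longest.

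Close copies and neighbours may also bear on the counts, which was not tested. The median share of runs of 31 bases found in another gene model was 9.37% for members and 1.04% over tested genes. It was above 20% for 35 members, and 18 members had none. Exons of 10 members overlapped another model on the same strand and those of 26 a model on the other strand, and the strand setting of the counting is not given in the sources used here. Of member genes, 2 pairs lay within 100 kb of each other: Ocln and Ak6 on chromosome 13, 98261 bp apart, and 2410015M20Rik and Rpl36 on chromosome 17, 3645 bp apart.

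Promoter sequence was available for 76 of the 98 genes, 3 of them under an older symbol (RefSeq, GRCm38.p6, 250 bases before to 50 after the gene's start). Motifs were searched on both strands. The GC box GGGCGG was in 56.6% of the 76 promoters, 66.3% of those of tested genes and 35.9% of all promoters. The CCAAT box CCAAT was in 39.5%, 39.9% and 37.9%, and the ETS motif CCGGAAGT, bound by factors that include targets of ERK, in 13.2%, 8.76% and 4.00%. A shorter ETS motif, GGAAGTG, which shares letters with it, was in 11.8% of member promoters and 14.7% of those of tested genes, and in the 150 bases before the start CCGGAAGT was in 6.58% against 5.42%. The SRE, searched as CC, then 6 bases of A or T, then GG, was in 1 promoter, that of Psma6 (1.32%, against 1.27% of tested genes). A start of the TOP type, known from ribosomal protein genes, was searched as a C followed by a run of C or T. That search covered only the gene's strand and runs beginning within 5 bases of the start. Such a start was in 23.7% of member promoters, 20.1% of those of tested genes and 18.5% of all. It was in 6 of the 11 ribosomal protein members with a promoter, and the search was added after the members were seen. A match is a run of letters and no evidence of binding.

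Windows from 150 bases before to 50 after the start are shown for Tmem14c, Rps27l and Cox7b, because each led its group by difference, and for Psma6, because it holds the only SRE. Capitals mark matches on either strand to the GC box, CCAAT box, ETS or SRE motifs; in Psma6 a CCAAT box on the other strand overlaps the SRE.
Tmem14c chr13:41016100-41016299 (+): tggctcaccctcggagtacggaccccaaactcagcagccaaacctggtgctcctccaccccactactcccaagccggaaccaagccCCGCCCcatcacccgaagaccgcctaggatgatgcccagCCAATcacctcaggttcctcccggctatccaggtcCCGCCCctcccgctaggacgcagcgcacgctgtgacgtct
Rps27l chr9:66945936-66946135 (+): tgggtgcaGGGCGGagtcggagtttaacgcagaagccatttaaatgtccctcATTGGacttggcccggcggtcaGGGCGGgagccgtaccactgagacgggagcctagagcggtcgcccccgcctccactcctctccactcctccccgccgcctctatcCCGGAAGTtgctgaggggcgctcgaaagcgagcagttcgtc
Cox7b chrX:106015550-106015749 (+): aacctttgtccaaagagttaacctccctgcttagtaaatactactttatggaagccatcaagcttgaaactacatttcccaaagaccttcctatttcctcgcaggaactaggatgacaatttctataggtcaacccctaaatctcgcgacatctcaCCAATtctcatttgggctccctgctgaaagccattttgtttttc
Psma6 chr12:55384072-55384271 (+): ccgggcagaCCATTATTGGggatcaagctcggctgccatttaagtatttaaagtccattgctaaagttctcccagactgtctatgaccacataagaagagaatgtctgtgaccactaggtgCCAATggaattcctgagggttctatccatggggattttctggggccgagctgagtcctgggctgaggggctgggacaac

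The limits cut through a continuous range. For rev against 4h the genes just inside were Fundc2 at -0.40, Ick at -0.40 and Vps29 at -0.41, and those just outside that met the other limits were Uqcc2 at -0.40, Rps18 at -0.39 and Ndfip1 at -0.39. For rev against 0h they were Cmtr2 at -0.40, Dars at -0.40 and Rpl36 at -0.40, and outside Selenof at -0.40, Tubg1 at -0.39 and Pgk1 at -0.39. For the 4h to 0h limit the absolute differences were Mrps16 at 0.24, Dppa5a at 0.24 and S1pr2 at 0.23 inside, and L3mbtl3 at 0.25, Atp5e at 0.25 and EU599041 at 0.27 outside. For the level at 4h they were Zfp184 at 5.08, Mitd1 at 5.12 and Fundc2 at 5.18 CPM inside, and Hibch at 4.81, Sept6 at 4.70 and Egln3 at 4.50 CPM outside.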

How the data were processed

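RNA-seq of ribosomal RNA-depleted total RNA was analysed in 16 libraries: 4 groups with 2 libraries from each of 2 clones. The labels name RNeasy extraction, NEBNext rRNA depletion and NEBNext Ultra II libraries. The values are whole-number read counts per gene as deposited by the authors, not normalized; bcl2fastq 2.19.1, STAR 2.5.3a and mm10 are named, without a role, per the submitters' processing notes, and the counting tool, annotation and strand setting are not given in the sources used here. Of 52636 identifiers 52403 had a symbol.

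Genes were filtered with filterByExpr by group (12215 kept), scaled with TMM and fitted with edgeR 4.0.16 (limma 3.58.1, R 4.3.3), quasi-likelihood, with terms for group and clone over all 16 libraries; a second fit with group and clone combined gave clone-specific values. P-values were adjusted (Benjamini-Hochberg) over all tested genes at 0.05 and measure the spread between these cultures, which share 2 clones. The scripts were tested on simulated data. Values after ± are the SD over 4 libraries or, for log2 fold changes, the SE of the fit, and both include the spread between libraries. The floors (3 counts) cover counting error only. DESeq2 1.42.0, other scalings, filters and designs, and leaving out each library were alternatives.

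The members and gene lists were chosen with earlier results of these data known. The lists of coding ribosomal proteins, respiratory chain, mitochondrial ribosome, proteasome and folding genes, and the TOP start, were added after the members were seen. Genes named are the 15 members with the most negative difference between rev and 4h, the 8 most abundant, the 5 with the smallest adjusted p in each direction at 2h, the 3 with the smallest for each clone test, members on a list, those next to each limit and up to 5 with a library far from the rest; the others named with values (Pebp1, Eif2s3x, Fh1, Timm8b, Nampt and those in the lists added) were chosen after their values were seen. Values of some members are not reported here.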

Additional observations from a re-analysis of the deposited data

Results flagged for a closer look

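Each of the 98 genes, and 5 sums or shares per library, was examined in each group of 4 libraries. In 22 of these 412 sets 1 library lay far from the other 3 by Dixon's criterion, about as many as the 1 in 20 that chance gives. At 0h these were Fbp2 at 20.2 CPM and Rpl17 at 115 CPM, both in clone 8 replicate 2. At 2h they were C1d at 3.07, Nampt at 54.3 and Zfp760 at 11.4 CPM in clone 4 replicate 2, and Rpl17 at 113 CPM in clone 4 replicate 1. At 4h, clone 4 replicate 1 stood apart for Rpl22l1 at 9.90, Uqcrc2 at 48.8 and Nampt at 57.3 CPM. Clone 4 replicate 2 did so for S1pr2 at 19.0, BC002059 at 8.29, Rpl31 at 107 and Fundc2 at 6.31 CPM. Clone 8 replicate 1 did so for Mrps16 at 4.94 CPM, and clone 8 replicate 2 for Cox7b at 32.1 CPM. In rev, clone 4 replicate 1 stood apart for Rpl9 at 93.2 and Rpl39 at 23.5 CPM. Clone 8 replicate 2 did so for Tspan31 at 9.01, Uqcrh at 21.6, Cox4i1 at 61.3, Mitd1 at 2.25 and Fundc2 at 3.16 CPM.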

How the results depend on the processing

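The 62 results for named genes kept their direction under all alternatives run. Most are for rev against 4h, whose direction the rule fixed, so this supports nothing. Calls were lost for 15 of the 62 without the clone term, 12 with the share of the abundant models as a term and 7 with DESeq2. Library size alone lost 5 calls and gained 8, and the runs leaving out 1 library together lost 44 and gained 10. The limits of the rule gave 98 genes, and 163 with the 8 abundant models removed (97 shared), 1263 with library size alone (78 shared) and 21 with a limit of -0.5. With the 8 models removed, CPM are scaled to the remaining counts and are higher, while the limit of 5 CPM and the 1 added in L stay the same. The members' median log2 fold change against 4h was -0.54 in that fit and in the main one. Leaving out 1 library gave 74 to 142 genes, whose overlap with the 98 is not given here. With library size alone the median of all tested genes moved to -0.41 for rev against 4h and -0.32 for rev against 0h, with 57 genes called higher and 1671 lower against 4h in place of 969 and 1030, and 105 and 905 against 0h in place of 1518 and 1204; relative to that median the members stood at -0.55 against 4h. Members lower in rev than at 4h were 47 without the clone term and 53 with the share of the abundant models as a term (59 to 83 leaving out 1 library). Lower calls over all tested genes also went from 1030 to 463 and 652 in these fits, and the members' median log2 fold change was -0.54 and -0.49 beside -0.54. Lower than at 0h there were 52 without the clone term (68 to 85). Members lower at 2h than at 0h were 5 with DESeq2, 1 with library size alone and 3 without the clone term (4 to 22), and those higher were 0 with library size alone (0 to 1). Lower calls at 2h over all tested genes were 855, 134 and 462 in these fits, in place of 1182. Members higher at 4h than at 2h were 1 with library size alone, 2 without the clone term and 17 with only the groups compared (4 to 14). Members called at 4h against 0h were 0 with library size alone, without the clone term and with only the groups compared (0 to 4). Members lower in clone 8 were 13 with DESeq2, 43 with library size alone and 10 with the share as a term (13 to 32), and those higher 4 with DESeq2 and 1 with library size alone (4 to 10). With no filter on low counts, 1 and 2 members had a clone difference in rev against 4h and 0h (0 to 0 and 0 to 2 leaving out 1 library). Of genes chosen in clone 4, those lower in clone 8 were, against 4h, 5 with DESeq2, 7 with library size alone, 17 with only the groups compared and 6 with the share (2 to 18), and, against 0h, 12, 123 and 4 with DESeq2, library size alone and the share (6 to 38). Of genes chosen in clone 8, those lower in clone 4 were, against 4h, 27, 85 and 13 in the same order (20 to 60), and, against 0h, 8 with DESeq2 and 2 with library size alone (1 to 30). With library size alone, and with a library left out, the limits were applied again, so those counts are of other sets of genes. The ETS motif was in 5 promoters in a window of 150 bases. The cause of these moves was not tested.

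The replicate block, with clone and replicate number as 4 levels, gave 15 members lower and 1 higher at 2h, 7 higher at 4h than at 2h, 83 lower in rev than at 4h and 84 lower than at 0h. Same-numbered libraries shared only a number: over 12 pairs their deviations correlated at a mean of 0.0132 (-0.318 to 0.210).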
